A study of Mus musculus with 16 samples.

Results

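Grina, Nnt, Mid1, Tgfbr2 and 4632428N05Rik (now named Vsir) were followed in mouse pre-B cells that had lost SHP2. They were chosen by symbol as genes outside chromosomes 5 and 17 whose level shifted with SHP2 status, and they are 5 of 23279 symbols in the deposited table. The choice used the SHP2 comparisons with and without BCR-ABL1, so the SHP2 values of these genes are given as a description, with no test. RNA-seq was run on 16 libraries in 4 groups of 4. The groups were SHP2-null cells with BCR-ABL1 (genotype BCR-ABL WT (+/+)/SHP2 NULL (-/-) in the labels), SHP2 wild-type cells with BCR-ABL1 (BCR-ABL WT (+/+)/SHP2 WT (+/+)), SHP2-null cells without BCR-ABL1 (BCR-ABL NULL (-/-)/SHP2 NULL (-/-)) and SHP2 wild-type cells without BCR-ABL1 (BCR-ABL NULL (-/-)/SHP2 WT (+/+)). The strain, the age, how SHP2 was removed, how BCR-ABL1 was introduced and whether libraries of a group stem from different animals or cultures are not given in the labels, so p-values measure a spread between libraries that may be technical. Values are FPKM, fragment numbers divided by transcript length and by the size of the library.

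SHP2, encoded by Ptpn11, is a phosphatase that carries signals from growth factor and cytokine receptors to RAS and ERK, and BCR-ABL1 is the constitutively active fusion kinase of Philadelphia chromosome-positive leukaemia. The 5 genes belong to different pathways. Tgfbr2 encodes the type II receptor of TGF-beta, which binds the ligand and phosphorylates the type I receptor, and the signal then passes to SMAD transcription factors. Vsir encodes VISTA, a B7-family checkpoint protein of the cell surface best known from myeloid cells and T cells. Grina encodes a membrane protein of the TMBIM family, which takes part in calcium balance of the endoplasmic reticulum. Nnt encodes the nicotinamide nucleotide transhydrogenase of the mitochondrial inner membrane, which makes NADPH from the proton gradient. Mid1 encodes a TRIM-family ubiquitin ligase that binds microtubules and acts on the phosphatase PP2A through the alpha4 protein (Igbp1).

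Positions are those of RefSeq on GRCm38.p6, and GRCm38 is the build of the files per the submitters' processing notes. Tgfbr2 lay at chr9:116087695-116175363, Vsir at chr10:60346851-60430294, Grina at chr15:76246717-76249909, Nnt at chr13:119335527-119409257 and Mid1 at chrX:169685199-169990798, all 5 annotated as protein coding. Ptpn11 lay on another chromosome, at chr5:121130533-121191397. The RefSeq promoter table matched 3 of the 5 genes, Tgfbr2, Vsir and Mid1, and Grina and Nnt were not matched. The 250 bases before each annotated start are shown because these genes differed in the same libraries, and capitals mark a motif match. Tgfbr2 was read on the minus strand at chr9:116175364-116175613, Vsir on the plus strand at chr10:60346601-60346850 and Mid1 on the plus strand at chrX:169684949-169685198.
Tgfbr2: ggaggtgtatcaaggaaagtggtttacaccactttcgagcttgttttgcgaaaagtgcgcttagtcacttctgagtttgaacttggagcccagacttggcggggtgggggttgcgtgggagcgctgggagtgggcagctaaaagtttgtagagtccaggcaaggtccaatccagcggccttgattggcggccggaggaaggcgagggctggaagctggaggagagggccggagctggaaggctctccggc
Vsir: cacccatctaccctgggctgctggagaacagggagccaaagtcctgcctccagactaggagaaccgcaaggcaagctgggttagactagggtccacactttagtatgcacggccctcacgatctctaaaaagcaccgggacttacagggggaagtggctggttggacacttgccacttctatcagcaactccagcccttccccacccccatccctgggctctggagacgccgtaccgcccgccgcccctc
Mid1: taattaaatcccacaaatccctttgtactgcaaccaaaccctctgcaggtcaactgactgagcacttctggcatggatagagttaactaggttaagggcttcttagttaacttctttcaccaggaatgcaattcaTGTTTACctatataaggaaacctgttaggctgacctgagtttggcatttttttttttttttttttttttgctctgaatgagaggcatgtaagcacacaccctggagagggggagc
The Tgfbr2 and Vsir windows were GC-rich, at 58.4% and 60.4% GC with 12 and 9 CpG sites. The Mid1 window held 40.8% GC and 0 CpG sites. The median over 32851 promoter windows of this length was 52.4% GC and 6 CpG sites, and 67.8%, 73% and 13.3% of windows had a lower GC content than those of Tgfbr2, Vsir and Mid1. Both strands were searched for ETS (CCGGAAG), STAT (TTCNNNGAA), FOXO (GTAAACA), AP-1 (TGANTCA), E-box (CACGTG) and SMAD (GTCTAGAC) letters, found in 6.91%, 7.02%, 3.17%, 6.75%, 6.02% and 0.167% of all windows. The 1 match was in Mid1, the FOXO letters on the minus strand (read TGTTTAC on the plus strand), 115 to 109 bases before the start, and it overlapped no other motif. Mid1 has 3 annotated starts in the table, of which the first is shown, and the data do not tell which was used.

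Ptpn11 was the check of the labels. It averaged 4.52 ± 1.21 FPKM in null cells and 17 ± 0.957 FPKM in wild-type cells with BCR-ABL1, and without it 5.79 ± 2.03 FPKM in null cells and 16.7 ± 0.647 FPKM in wild-type cells (SD, n = 4). Each null library lay below each wild-type library (exact two-sided permutation test, p = 0.0286, the smallest that 4 against 4 libraries allow). The 12 pre-B markers looked at, such as Vpreb1 and Igll1, were all measured. With BCR-ABL1 they summed to 2339 to 2632 FPKM in null libraries and 2263 to 2456 FPKM in wild-type libraries. Without it the sums were 2373 to 2764 FPKM in null libraries and 2065 to 2259 FPKM in wild-type libraries, which did not overlap. In limma 0 of the 12 passed for SHP2 loss in either background. The part of this shift in the results given here was not tested. Markers of T and NK cells summed to at most 3.76 FPKM and stromal markers to at most 0.315 FPKM. Erythroid markers summed to at most 10.5 FPKM. The 5 mast cell markers summed to 0.789 to 2.31 FPKM in null cells and 1.02 to 3.36 FPKM in wild-type cells with BCR-ABL1, and without it to 0.254 to 12.2 FPKM in null cells and 6.83 to 11.8 FPKM in wild-type cells. Of these Cma1, a mast cell protease gene, was listed at 0 in every library with BCR-ABL1 (limma adjusted p = 0.000117 for averaged BCR-ABL1). Without it Cma1 averaged 0.652 FPKM in null cells and 2.97 FPKM in wild-type cells (log2 -1.35, limma adjusted p = 0.00435). Those null libraries ran from 0.0204 to 1.75 FPKM. Cma1 passed the filter on low values (at least 1 FPKM in 4 libraries) only through libraries without BCR-ABL1. The fit shares its spread over all 4 groups, those at 0 included, so the p-values of Cma1 may be too small. Cpa3, a mast cell carboxypeptidase gene, was lower with BCR-ABL1 (log2 -1.58, adjusted p = 0.00349 in limma). It too passed the filter mainly through libraries without BCR-ABL1. Kit, the other mast cell marker tested, had a positive estimate with BCR-ABL1 and did not pass (log2 0.31 ± 0.25, SE, adjusted p = 0.502 in limma). With 1 library left out its adjusted p ran from 0.00711 to 0.741. For SHP2 loss without BCR-ABL1 Kit differed by 0.50 ± 0.36 (adjusted p = 0.522), with null libraries at 0.226 to 5.34 FPKM. The part of mast cell markers in the results given here was not tested. Myeloid markers stood apart in 1 library, replicate 2 of the null cells without BCR-ABL1, where 11 of them summed to 512 FPKM with Lyz2 at 403 FPKM, against at most 76.6 FPKM for the sum and 34.3 FPKM for Lyz2 in the other 15 libraries. The SHP2 differences of the 5 genes without BCR-ABL1 and the TGF-beta target values are given with and without it below. The mast cell sums and the correlations between genes are given with all libraries only. No counts stand behind the FPKM, so absolute depth is unknown, and relative depth was estimated to differ by up to 1.61 times between libraries. In such bulk samples fewer cells of a type and less RNA per cell cannot be told apart.

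**Figure D1:**
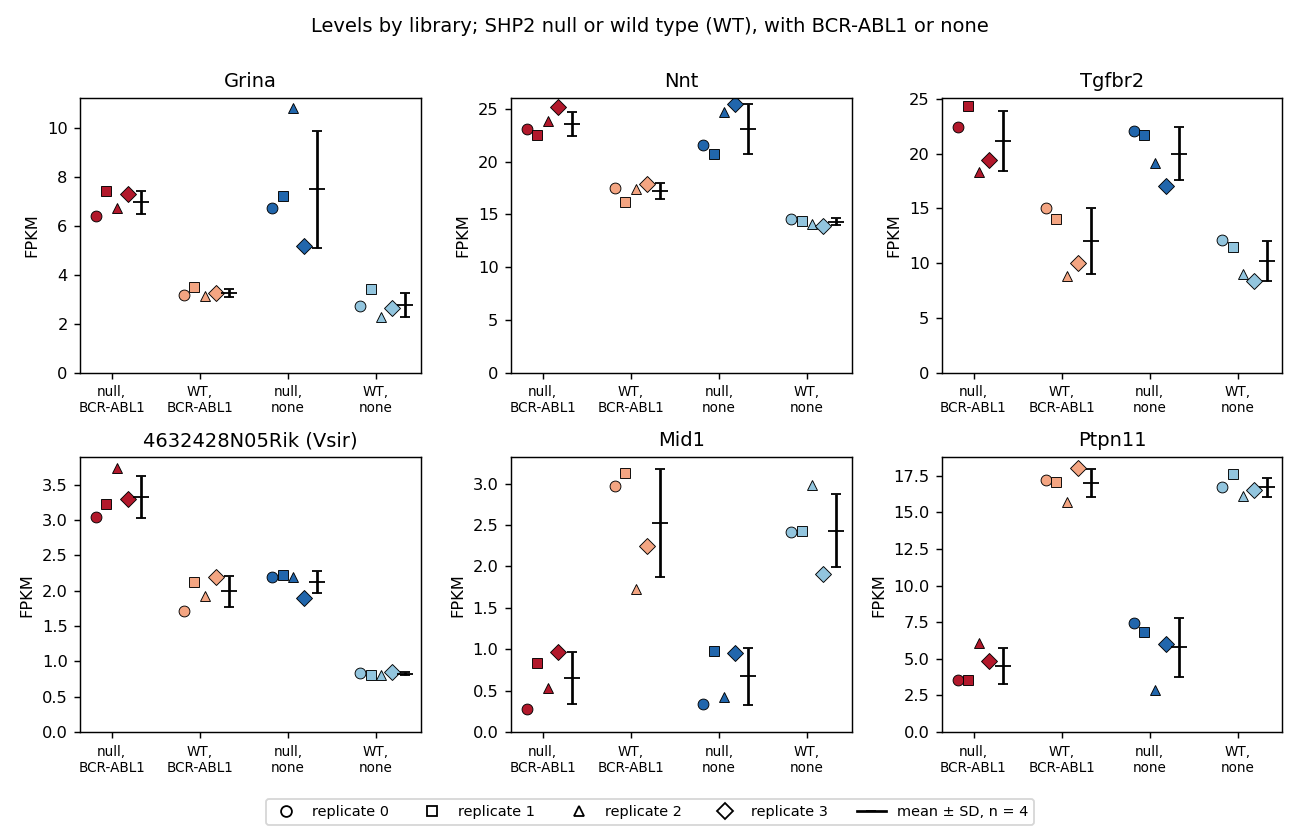
FPKM of the 5 genes and of Ptpn11 in each of the 16 libraries, by SHP2 state (null or wild type, WT) and BCR-ABL1, with symbols for the replicate number and bars for mean ± SD (n = 4). Grina, Nnt, Tgfbr2 and Vsir lie higher and Mid1 lies lower in all null libraries than in the wild-type libraries of the same background, and Vsir is also set apart by BCR-ABL1.

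Tgfbr2, the receptor that starts TGF-beta signalling, was higher in SHP2-null cells in both backgrounds. It read 22.4, 24.3, 18.3 and 19.4 FPKM in null libraries with BCR-ABL1 (replicates 0 to 3), against 15, 14, 8.82 and 10 FPKM in wild-type libraries with it. Without BCR-ABL1 it read 22.1, 21.7, 19.1 and 17 FPKM in null libraries, against 12.1, 11.5, 9.01 and 8.34 FPKM in wild-type libraries. The null and wild-type libraries did not overlap in either background, where over all 10210 tested genes they did not for 3.1% with BCR-ABL1 and 9.09% without it. Replicates 0 and 1 were above replicates 2 and 3 in all 4 groups. The null mean was 1.76 times the wild-type mean with BCR-ABL1 and 1.95 times without it. The differences in log2(FPKM + 1) were 0.79 ± 0.16 and 0.91 ± 0.16 (SE).

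4632428N05Rik (Vsir), the checkpoint gene, was the lowest in level of the 4 genes that were higher in null cells, and its groups were set apart by SHP2 and by BCR-ABL1. It read 3.04, 3.23, 3.74 and 3.29 FPKM in null libraries with BCR-ABL1, against 1.71, 2.12, 1.93 and 2.2 FPKM in wild-type libraries with it. Without BCR-ABL1 it read 2.19, 2.22, 2.2 and 1.89 FPKM in null libraries, against 0.839, 0.813, 0.811 and 0.845 FPKM in wild-type libraries. The order of the groups was null with BCR-ABL1, then null without it and wild type with it, which overlapped, then wild type without it. The null minus wild-type difference was 1.33 FPKM with BCR-ABL1 and 1.3 FPKM without it, while the ratio of means was 1.67 with and 2.57 without it. On the log2 scale the differences were 0.53 ± 0.07 and 0.77 ± 0.07 (SE). In the null library with the myeloid markers Vsir read 2.2 FPKM, within the range of the other 3 null libraries without BCR-ABL1, and the log2 difference without that library was 0.76.

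Grina, the TMBIM gene, was higher in null cells in both backgrounds, by more than 2-fold in the means. It read 6.41, 7.42, 6.73 and 7.28 FPKM in null libraries with BCR-ABL1, against 3.15, 3.5, 3.11 and 3.23 FPKM in wild-type libraries with it. Without BCR-ABL1 it read 6.74, 7.21, 10.8 and 5.15 FPKM in null libraries, against 2.71, 3.42, 2.27 and 2.65 FPKM in wild-type libraries. The groups did not overlap in either background, and the highest value, 10.8 FPKM, was that of the library with the myeloid markers. The ratio of means was 2.14 with and 2.71 without BCR-ABL1, with log2 differences of 0.90 ± 0.14 and 1.14 ± 0.14 (SE), the second being 0.97 without that library. Within replicate numbers the ratio ran from 2.03 to 2.25 with BCR-ABL1 and from 1.95 to 4.76 without it.

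Nnt, the mitochondrial transhydrogenase, was the most abundant of the 5 genes, with 71.5% of the 10210 tested genes at a lower mean, and had the smallest ratio. It read 23.1, 22.5, 23.9 and 25.2 FPKM in null libraries with BCR-ABL1, against 17.5, 16.2, 17.4 and 17.9 FPKM in wild-type libraries with it. Without BCR-ABL1 it read 21.6, 20.7, 24.7 and 25.5 FPKM in null libraries, against 14.6, 14.4, 14.1 and 13.9 FPKM in wild-type libraries. The 2 null groups overlapped, while the wild-type libraries with BCR-ABL1 all lay above those without it, a comparison in which the groups of 11.7% of all genes did not overlap. The ratio of null to wild-type means was 1.37 with and 1.62 without BCR-ABL1, and the log2 differences were 0.43 ± 0.07 and 0.65 ± 0.07 (SE). C57BL/6J mice are known for a deletion within this gene, and the strain of these cells is not given in the labels.

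Mid1, the microtubule-bound ubiquitin ligase, was the 1 gene of the 5 that was lower in null cells. It read 0.276, 0.835, 0.533 and 0.967 FPKM in null libraries with BCR-ABL1, against 2.97, 3.13, 1.73 and 2.25 FPKM in wild-type libraries with it. Without BCR-ABL1 it read 0.336, 0.984, 0.418 and 0.952 FPKM in null libraries, against 2.41, 2.43, 2.98 and 1.91 FPKM in wild-type libraries. In both null groups replicates 0 and 2 were the lowest pair, a split not seen in the wild-type groups. The null mean was 25.9% of the wild-type mean with BCR-ABL1 and 27.7% without it, beside 26.6% and 34.5% for Ptpn11. The log2(FPKM + 1) differences of -1.09 ± 0.17 and -1.05 ± 0.17 (SE) understate this, because Mid1 lay below 1 FPKM in all 8 null libraries, and with a pseudocount of 0.1 they were -1.87 and -1.81. Mid1 passed the filter on low values (at least 1 FPKM in 4 libraries) through its wild-type libraries alone. Mid1 is X-linked, and the X-inactivation transcript Xist read 23 to 62.2 FPKM over the 16 libraries while 4 Y-linked markers read at most 0.00535 FPKM. Xist averaged 37.1 and 34 FPKM in null and wild-type cells with BCR-ABL1 (log2 0.08 ± 0.25, SE). Without it Xist averaged 35.7 and 52.4 FPKM in null and wild-type cells (log2 -0.57 ± 0.25, limma adjusted p = 0.275). It passed in neither background, and its part in the Mid1 values was not tested.

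**Figure D2:**
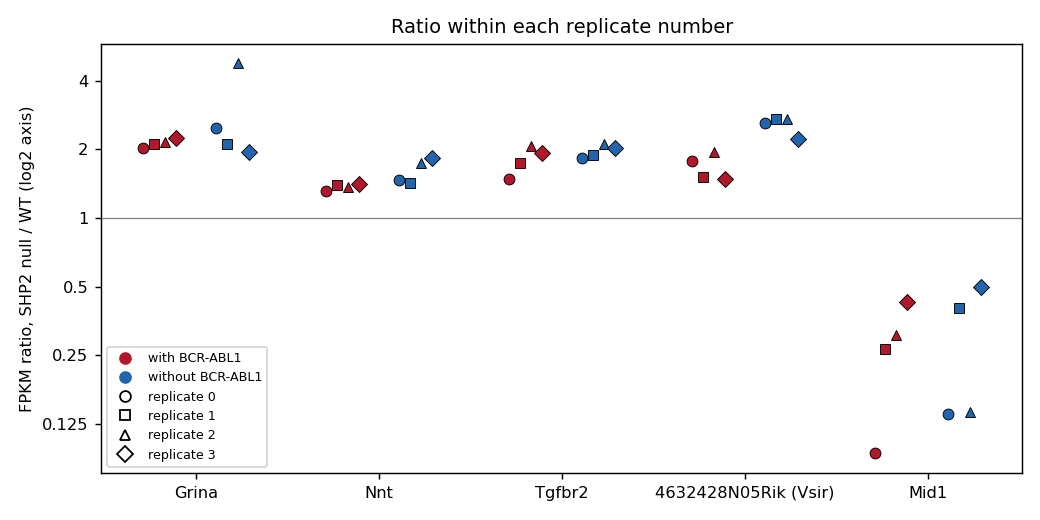
Ratio of FPKM in the SHP2-null library to that in the wild-type library of the same replicate number (log2 axis), with BCR-ABL1 in red and without it in blue. All ratios of Grina, Nnt, Tgfbr2 and Vsir lie above 1 and all of Mid1 lie at or below 0.5, and the widest spreads are those of Grina without BCR-ABL1 (1.95 to 4.76) and of Mid1 (0.093 to 0.43 with and 0.139 to 0.5 without BCR-ABL1).

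All 5 genes had groups that did not overlap in both backgrounds, and nothing is read from this, since SHP2 values chose the genes. With limma adjusted p below 0.05 as a call, 0.313% of all genes (18 higher, 14 lower) were called with BCR-ABL1 and 1.54% (104 higher, 53 lower) without it, and 0.264% in both in the same direction. Those 27 genes lay on chromosome 5 (10 genes), chromosome 17 (10 genes) and elsewhere (7 genes). The 7 elsewhere were the 5 genes followed here, which were chosen for this, and 2 others. The share of all tested genes on each chromosome is not given. Without the null library with the myeloid markers the log2 differences without BCR-ABL1 were 0.62 for Nnt, 0.93 for Tgfbr2 and -0.98 for Mid1. The count of all genes called was 20 or 21 of 10210 when wild-type replicate 3 or 2 with BCR-ABL1 was left out, against 32 with all libraries. Without BCR-ABL1 it was 103, 80 and 102 when null replicate 2, wild-type replicate 2 or wild-type replicate 3 was left out, against 157, and 587 with the replicate block. The higher share of those 157 calls was 66.2%, and 54.7% after quantile normalization.

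The effect of BCR-ABL1 averaged over both SHP2 states played no part in the choice of genes, and it was tested. Vsir was the 1 of 5 genes that passed, against 8.98% of all genes (548 higher, 369 lower). It was higher with BCR-ABL1, by 0.59 ± 0.05 on the log2 scale (SE, 95% interval 0.48 to 0.69, limma adjusted p = 5.36e-06). The increase was 0.47 ± 0.07 in null cells, where the ratio of means was 1.56, and 0.71 ± 0.07 in wild-type cells, where it was 2.41. All 4 libraries with BCR-ABL1 lay above all 4 without it within each SHP2 state, where the groups did not overlap for 7.07% of all genes in null cells and 11.7% in wild-type cells. The FPKM difference was 1.2 in null and 1.16 in wild-type cells. The call held whichever 1 of the 16 libraries was left out, with differences of 0.57 to 0.61 (adjusted p = 8.63e-06 to 2.82e-05).

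The other 4 genes did not pass. Nnt differed by 0.15 (95% interval 0.04 to 0.25, limma adjusted p = 0.0708), with 0.04 ± 0.07 in null cells and 0.26 ± 0.07 in wild-type cells (SE). It passed when null replicate 2 or null replicate 3 without BCR-ABL1 was left out (adjusted p = 0.0473 and 0.0421). It also passed with array weights (difference 0.21, adjusted p = 0.00182 in limma) and with the replicate block (difference 0.15, adjusted p = 0.0238 in limma). Calls over all genes rose under both, to 2625 of 10210 with array weights and 1980 (19.4%) with the block, against 917 (8.98%). Its differences ran from 0.12 to 0.17 over the 16 libraries left out. Tgfbr2 differed by 0.13 (interval -0.10 to 0.37), Grina by 0.07 (interval -0.15 to 0.28) and Mid1 by 0.01 (interval -0.25 to 0.27), with limma adjusted p = 0.513, 0.762 and 0.982. Leaving out null replicate 3 without BCR-ABL1 turned the sign of Grina (-0.01), and the sign of Mid1 turned with 7 of the 16 libraries left out. The intervals leave room for log2 differences of up to 0.37 for Tgfbr2, so these values do not show that BCR-ABL1 had no effect. The total of genes called was 598, 565 and 588 when wild-type replicate 2 without BCR-ABL1, null replicate 2 with it or wild-type replicate 0 with it was left out, against 917.

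**Figure D3:**
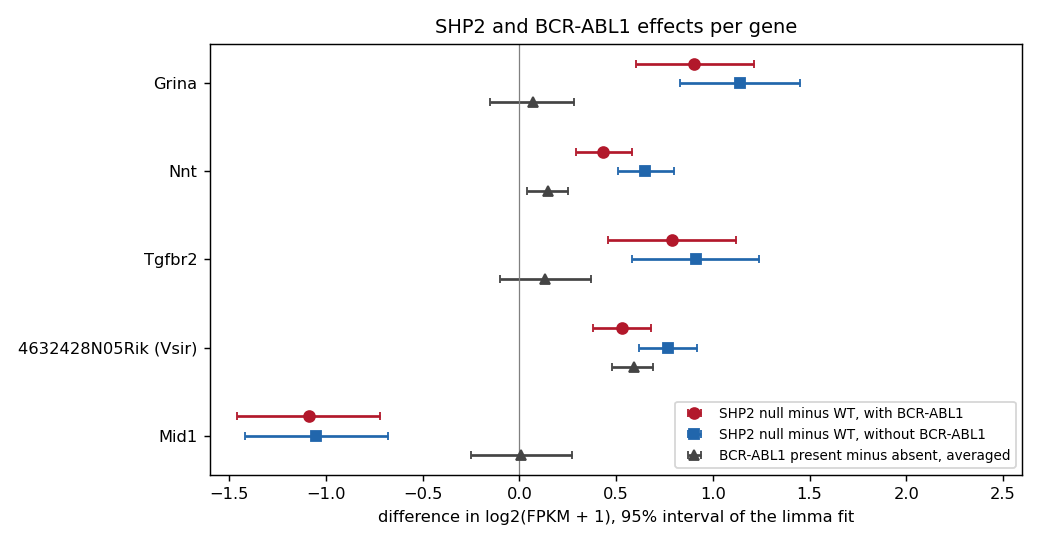
Differences in log2(FPKM + 1) with 95% intervals of the limma fit for SHP2 null minus wild type with BCR-ABL1 (circles), the same without BCR-ABL1 (squares) and BCR-ABL1 present minus absent averaged over SHP2 states (triangles). The triangle of Vsir lies at 0.59, clear of 0, while those of Grina, Tgfbr2 and Mid1 have intervals that cross 0, and the SHP2 differences chose the genes and carry no test.

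On the log2 scale the SHP2 difference had the larger estimate without BCR-ABL1 in Grina, Nnt, Tgfbr2 and Vsir, while in FPKM that of Vsir was 1.33 with and 1.3 without BCR-ABL1. The difference between the SHP2 differences was -0.24 ± 0.20 for Grina, -0.22 ± 0.10 for Nnt, -0.12 ± 0.22 for Tgfbr2, -0.24 ± 0.10 for Vsir and -0.04 ± 0.24 for Mid1 (log2, SE). Without the null library with the myeloid markers the value for Grina was -0.06 ± 0.15. With 1 of the 16 libraries left out it ran from -0.38 to -0.06 for Grina, -0.27 to -0.17 for Nnt, -0.24 to 0.00 for Tgfbr2, -0.29 to -0.21 for Vsir and -0.16 to 0.08 for Mid1. These values rest on the comparisons that chose the genes and were not tested for them. Over all genes 0 passed for this difference in limma and 591 (5.79%) had an unadjusted p below 0.05.

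Over the 16 libraries Pearson r between pairs of the 5 genes was 0.73 to 0.89 among the 4 higher genes and -0.88 to -0.67 between these and Mid1, where libraries of a group share their SHP2 status. After the 4 group means were taken out, r over the 16 libraries lay between -0.42 (Nnt and Tgfbr2) and 0.34 (Grina and Vsir). Grina and Nnt had r = 0.89 over the libraries and 0.00 within groups. Within groups Tgfbr2 had r = -0.55 with Lyz2 and -0.61 with the noncoding RNA Rpph1, and Nnt had r = 0.59 with Lyz2. Grina had r = -0.55 with Ptpn11 within groups, and the other 4 genes had r between -0.28 and 0.25. The null library with the myeloid markers held the highest Grina value (10.8 FPKM) and the lowest Ptpn11 value (2.87 FPKM). It also held the Lyz2 value of 403 FPKM, and r was not computed without it. Lyz2 and Rpph1 moved with these genes as given, and their part in the values was not tested.

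For each gene the 5 tested genes most like it over the 16 libraries were found by Pearson r, leaving out predicted, RIKEN and small RNA genes. Among the 5 most like Grina were Vps33a (r = 0.950), Acad10 (0.933), Sirt4 (0.920) and Pxn (0.910), and these 4 lie on chromosome 5. Nnt was most like Dcpp2 (0.931), Vps33a (0.929), Zfp605 (0.926), Asb13 (0.907) and Zfp760 (0.892). For Tgfbr2 they were Grk5 (0.943), Acad10 (0.939), Brap (0.922), Zfp605 (0.912) and Hagh (0.908), and those of Vsir were H2-T10 (0.957), Amigo1 (0.954), Katnal1 (0.930), Zbtb18 (0.918) and Acox3 (0.917). Chromosomes 5 and 17, which hold most genes called in both SHP2 comparisons, held 2 and 2 of the 5 for Nnt, 3 and 1 for Tgfbr2, and 2 and 1 for Vsir. The genes followed here were chosen by SHP2 shift, so genes like them over all libraries tend to shift with SHP2 too. The share of all tested genes on these chromosomes is not given, and nothing is read from these counts. H2-T10, a class I histocompatibility gene whose relatives may share reads, is uncertain, and it averaged 9.12 and 8.02 FPKM in null and wild-type cells with BCR-ABL1, and without it 7.68 and 4.8 FPKM in null and wild-type cells.

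Mid1 was most like Cacna1h (0.925), Ptpn11 (0.897), Tmem254b (0.873), Zfp213 (0.859) and Dcp1a (0.858). Tmem254b and Dcp1a lie on chromosome 14, at 26.2 and 30.5 Mb. Tmem254b has near-identical relatives that could split its reads, so its value is uncertain. It averaged 9.66 ± 4.05 FPKM in null cells and 16.7 ± 0.844 FPKM in wild-type cells with BCR-ABL1, and without it 8.07 ± 3.58 FPKM in null cells and 17.4 ± 2.14 FPKM in wild-type cells (SD, n = 4). Dcp1a, which encodes an mRNA decapping factor, averaged 7.75 ± 1.19 and 9.75 ± 1.02 FPKM in null and wild-type cells with BCR-ABL1. Without it Dcp1a averaged 7.87 ± 1.32 and 9.55 ± 0.821 FPKM in null and wild-type cells. Within groups the genes most like Mid1 were Dcp1a (0.800), Ccser2 (0.684) and Trib2 (0.666), and Ccser2 also lies on chromosome 14, at 36.9 Mb. For SHP2 loss Dcp1a and Ccser2 did not pass in either background (limma adjusted p = 0.285 and 0.271 without BCR-ABL1). Tmem254b passed without BCR-ABL1 only (limma adjusted p = 0.041, against 0.709 with it). The share of all tested genes on chromosome 14 is not given, and nothing is read from these positions. The genes most like the other members of the set within groups were Dhx58, Dpp7 and Ypel3 for Grina (0.922 to 0.947), Gpd1l, Tbk1 and Ttc21b for Nnt (0.925 to 0.935), Ehd4, Odf2 and Zeb2 for Tgfbr2 (0.957 to 0.973), and Stard4, Angptl6 and Qsox2 for Vsir (0.733 to 0.792).

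Genes whose lower coordinate lies within 2 Mb of that of the 5 genes were next compared with them, 101 tested genes in all. With BCR-ABL1 0 of the 101 passed in limma (5 at an unadjusted p below 0.05), against 0.313% of all genes (3.65% unadjusted). Without BCR-ABL1 4 passed, 3 higher and 1 lower (19 at an unadjusted p below 0.05), which is 3.96% (18.8% unadjusted) against 1.54% (16.1% unadjusted) of all genes. With the replicate block 11 of the 101 passed without BCR-ABL1, 10.9% against 5.75% of all genes. Nearest to Vsir among them, at 69 kb, was Psap, the lysosomal saposin precursor, which averaged 175 ± 8.3 FPKM in null cells and 149 ± 7.89 FPKM in wild-type cells with BCR-ABL1, and without it 176 ± 42.1 FPKM in null cells and 109 ± 4.91 FPKM in wild-type cells. It rose without BCR-ABL1 (log2 0.66 ± 0.12, limma adjusted p = 0.00654), and the difference with BCR-ABL1 was 0.24 ± 0.12 (adjusted p = 1). The highest Psap value, 239 FPKM, was in the null library with the myeloid markers, and the call held with each of the 16 libraries left out. Gsdmd, the pore-forming gasdermin D gene 385 kb from Grina, rose without BCR-ABL1 to 10.8 ± 1.09 FPKM in null cells, against 7.26 ± 0.927 FPKM in wild-type cells (log2 0.52 ± 0.09, limma adjusted p = 0.00472). BC147527, 965 kb from Nnt, averaged 1.04 FPKM in null cells and 0.612 FPKM in wild-type cells without BCR-ABL1 (adjusted p = 0.0498 in limma), and its call was lost with 13 of the 16 libraries left out, up to 0.138. With BCR-ABL1 the log2 differences were 0.09 ± 0.09 for Gsdmd and 0.10 ± 0.08 for BC147527 (SE), and neither passed.

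The 1 neighbour that fell was G530011O06Rik, a noncoding transcript on the minus strand inside the Mid1 gene, at chrX:169975043-169978917. It averaged 1.2 ± 0.329 FPKM in null cells and 2.68 ± 0.692 FPKM in wild-type cells with BCR-ABL1, and without it 1.11 ± 0.394 FPKM in null cells and 3.48 ± 1.21 FPKM in wild-type cells (SD, n = 4). The log2 differences were -0.73 ± 0.19 with BCR-ABL1 (limma adjusted p = 0.239) and -1.07 ± 0.19 without it (adjusted p = 0.00734). The library kit marks strand, but the use of strand in making the FPKM was not given in the sources used here. Reads of Mid1 and of this antisense transcript may therefore be mixed, and both values are uncertain in that respect. The other 3 tested neighbours of Mid1 did not pass, nor did any of the 14 of Tgfbr2.

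**Figure D4:**
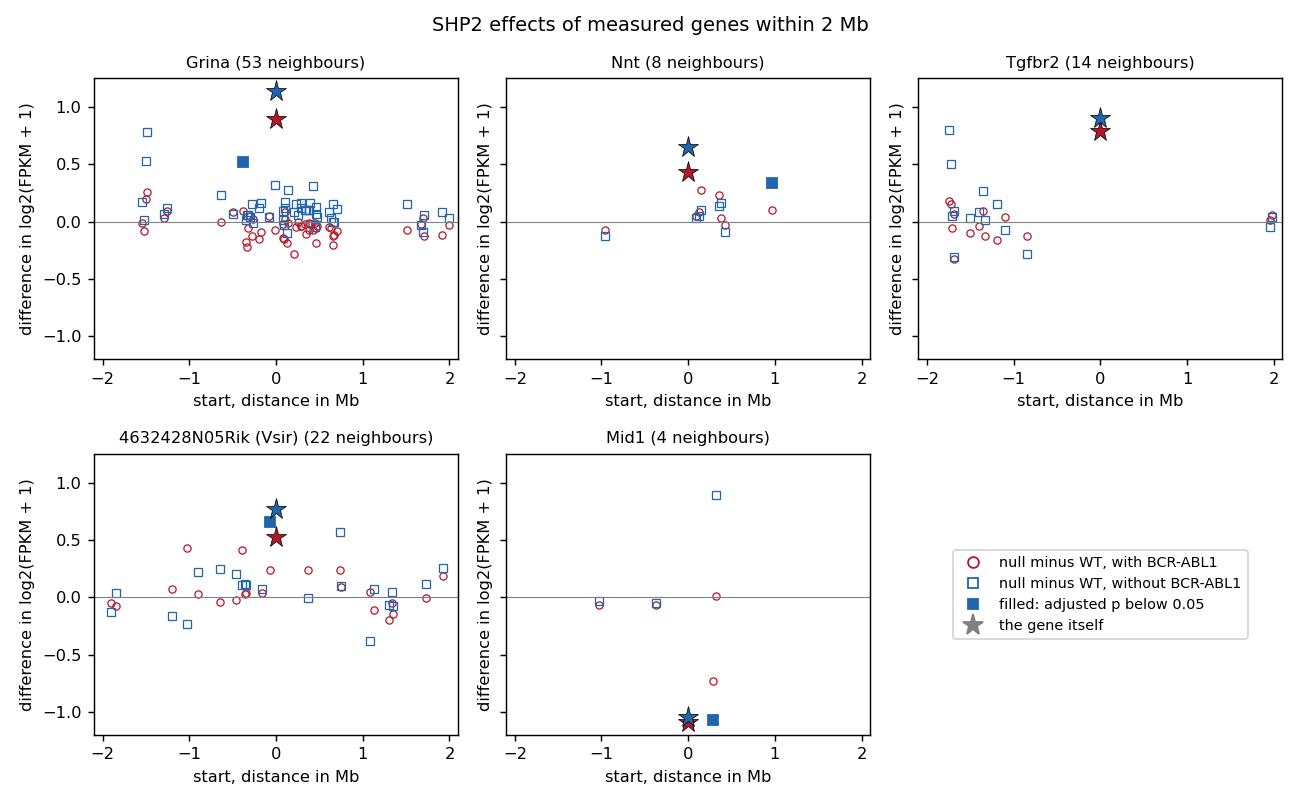
Differences in log2(FPKM + 1), SHP2 null minus wild type, of tested genes that start within 2 Mb of each of the 5 genes (stars), against distance in Mb. Of 101 neighbours 4 are filled as passing without BCR-ABL1 (adjusted p below 0.05) and 0 with it, and the passing gene beside Mid1 is the overlapping transcript G530011O06Rik.

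Related genes of each pathway were read from 7 lists of 131 genes, of which 89 were tested. In both SHP2 comparisons 0 of the 89 passed in limma, against 0.313% of all genes with and 1.54% without BCR-ABL1. At an unadjusted p below 0.05 there were 4 with BCR-ABL1 (4.49% against 3.65% of all genes) and 15 without it (16.9% against 16.1%). With the replicate block 3 passed without BCR-ABL1 (3.37% against 5.75% of all genes), namely Lrrc32 (log2 -0.40, adjusted p = 0.0444), Selplg (-0.40, 0.0269) and Trim2 (0.33, 0.0456), and Trim2 passed when wild-type replicate 0 without BCR-ABL1 was left out (0.0448). Selplg encodes PSGL-1, an adhesion molecule that VISTA is known to bind, and it averaged 22.4 ± 2.83 FPKM in null cells and 29 ± 2.17 FPKM in wild-type cells with BCR-ABL1, and without it 24.8 ± 3.9 FPKM in null cells and 32.9 ± 4.16 FPKM in wild-type cells. Other list genes given with their SHP2 values, apart from Smurf1 and Strap, were chosen after those values were seen.

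Among 11 TGF-beta ligands and receptors the median log2 difference was 0.07 with and 0.03 without BCR-ABL1. Tgfbr1, the type I receptor that pairs with Tgfbr2, averaged 6.71 ± 0.85 and 6.35 ± 0.722 FPKM in null and wild-type cells with BCR-ABL1, and without it 6.37 ± 0.897 and 6.03 ± 0.697 FPKM in null and wild-type cells (log2 0.07 ± 0.11 in each comparison). The ligand gene Tgfb1 averaged 11.6 and 11.4 FPKM in null and wild-type cells with BCR-ABL1, and without it 14.8 FPKM in both groups. The 12 SMADs and their regulators had medians of 0.00 and -0.04, and the ubiquitin ligase gene Smurf1 and the receptor-associated Strap, named as those of smallest p, had adjusted p = 0.314 and 0.423 without BCR-ABL1 in limma. The 10 TGF-beta target genes had 7 positive values and a median of 0.14 with BCR-ABL1, where the median of all genes was -0.017. Without BCR-ABL1 they had 9 positive values and a median of 0.29, where the median of all genes was 0.023, with 5 at an unadjusted p below 0.05 (16.1% of all genes) and 0 passing. Without the null library with the myeloid markers 8 were positive, their median was 0.19 beside 0.031 for all genes, and 3 had an unadjusted p below 0.05 (12% of all genes). That count was also 3 when null replicate 3, wild-type replicate 0 or wild-type replicate 1 without BCR-ABL1 was left out. In the same comparison 11 of the 12 pre-B markers were positive with a median of 0.19, and the 4 tested myeloid markers were all positive with a median of 0.58, or 2 positive with a median of 0.04 without that library. The part of these markers in the target values was not tested. Cdkn2b, a cell cycle inhibitor of that list, averaged 2.01 ± 0.117 FPKM in null cells and 1.33 ± 0.236 FPKM in wild-type cells with BCR-ABL1. Without it Cdkn2b averaged 2.06 ± 0.527 FPKM in null cells and 1.41 ± 0.106 FPKM in wild-type cells. It did not pass (limma adjusted p = 0.426 with and 0.139 without BCR-ABL1). With array weights it passed without BCR-ABL1 (limma adjusted p = 0.011), where 644 of 10210 genes did. Target genes with negative values included Id3 with BCR-ABL1 (-0.17) and Bhlhe40 without it (-0.22).

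The 19 genes of the TMBIM family and of calcium handling had medians of 0.02 with and -0.06 without BCR-ABL1, and Tmbim6, the best known relative of Grina, averaged 43.3 and 42.8 FPKM in null and wild-type cells with BCR-ABL1, and without it 45.3 and 40.9 FPKM in null and wild-type cells. The 21 genes of NADPH supply and mitochondrial redox, partners of Nnt, had medians of -0.03 and -0.07, with 7 and 5 positive values. The 9 MID1 partners and related TRIM genes had medians of -0.08 and -0.01, and Igbp1, whose protein links MID1 to PP2A, averaged 36.3 and 36.1 FPKM in null and wild-type cells with BCR-ABL1, and without it 31.4 and 34.5 FPKM in null and wild-type cells. The 7 tested B7-family and checkpoint genes had medians of 0.02 and 0.07, and they ran from -0.36 (Selplg) to 0.32 (Ctla4) with BCR-ABL1 and from -0.50 (Btla) to 0.34 (Lgals9) without it.

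**Figure D5:**
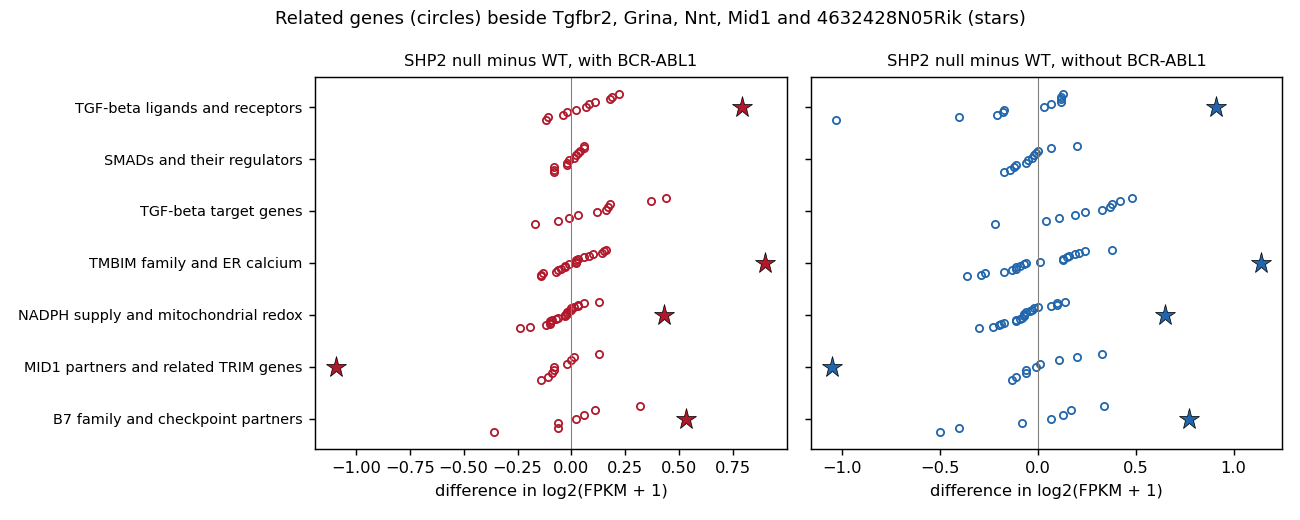
Differences in log2(FPKM + 1), SHP2 null minus wild type, of the 89 tested genes of 7 related lists (circles) beside the 5 genes (stars, on the row of their own list), with BCR-ABL1 on the left and without it on the right. Each star lies outside the circles of its row with BCR-ABL1 and without it, the 5 genes having been chosen for this shift, and the TGF-beta targets on the right lie mostly above 0.

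For BCR-ABL1 averaged over SHP2 states 9 of the 89 list genes passed in limma, 10.1% against 8.98% of all genes, 3 higher and 6 lower. Cd28, the costimulatory receptor gene of the B7 list in which Vsir stands, was higher with BCR-ABL1 (log2 0.93 ± 0.11, adjusted p = 7.67e-05 in limma). It averaged 1.47 ± 0.384 FPKM in null cells and 1.55 ± 0.315 FPKM in wild-type cells with BCR-ABL1. Without it Cd28 averaged 0.414 ± 0.319 FPKM in null cells and 0.238 ± 0.136 FPKM in wild-type cells. Cd28 read at most 0.865 FPKM without BCR-ABL1. It was therefore tested only because its libraries with BCR-ABL1 passed the filter on low values, a limit of its p-value. Eng, a TGF-beta co-receptor gene, fell to 2.11 ± 0.531 FPKM in null cells and 2.35 ± 0.572 FPKM in wild-type cells with BCR-ABL1, against 5.07 ± 1.27 FPKM in null cells and 5.89 ± 1.76 FPKM in wild-type cells without it (log2 -0.99 ± 0.13, adjusted p = 0.000254). The calcium channel gene Itpr3 (log2 -0.68) and the glutathione reductase gene Gsr (-0.32) fell, and Trim2 (0.31) rose. The calls of these 5 genes held with each of the 16 libraries left out. Trim2 read at most 1.06 FPKM without BCR-ABL1, so it passed the filter mainly through libraries with BCR-ABL1. The calls of Lrrc32, which encodes a carrier of latent TGF-beta (log2 -0.30), Acvr1, a BMP and activin type I receptor gene (-0.32), Id3, a TGF-beta and BMP target (-0.54), and Orai3, a calcium channel gene (0.21), were lost with 10, 12, 6 and 13 of the 16 libraries left out, with adjusted p of up to 0.0771, 0.0724, 0.0653 and 0.0978. Acvr1 reached 1 FPKM only, and Lrrc32 mainly, in libraries without BCR-ABL1, through which they passed the filter. The count over the lists ran from 5 to 11 with 1 library left out. It was 5 without null replicate 3 without BCR-ABL1, without wild-type replicate 2 without BCR-ABL1 and without null replicate 2 with BCR-ABL1.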

How the data were processed

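PolyA RNA (150 ng per library) was read for 100 cycles from both ends, per the labels' protocols. The authors deposited FPKM values per symbol. Per the submitters' processing notes, Bowtie, Cufflinks and mm10 (GRCm38) were used. Their versions, the annotation, strand handling, multiply mapped reads and library scaling were not given in the sources used here. Summing 254 symbols listed more than once (733 entries, none of the 5 genes) left 23279 symbols from 23758 entries. Summed FPKM ran from 348923 to 443702.

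The 5 genes and the related lists were chosen with earlier results of these data known. The 10210 genes that reached 1 FPKM in 4 or more libraries (all 5 among them) were fitted as log2(FPKM + 1), which understates changes of low genes, with limma 3.58.1 in R 4.3.3 (4 group means, trended prior variance), and p-values were adjusted by Benjamini-Hochberg over all genes tested, two-sided, with 0.05 as the threshold. The BCR-ABL1 effect was averaged over SHP2 states, a contrast orthogonal to both SHP2 contrasts. The fit was tested on simulated data with independent noise in each library, which does not test it where same-number libraries share deviations. Python 3.11.15, pandas 2.3.3, numpy 2.4.6, scipy 1.17.1 and matplotlib 3.10.9 were used.

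The rule for named genes took the 5 genes and Ptpn11, list genes with an adjusted p below 0.05 (where none passed, the 2 of smallest p), the 5 and 3 most alike genes per gene, and neighbours within 2 Mb that passed. A gene that this rule names is not reported here. Pairing by replicate number was read from the data: deviations from the group means correlated between same-number libraries at 0.218 to 0.783 with and 0.189 to 0.510 without BCR-ABL1 for the SHP2 comparisons, so for these comparisons blocked values are given where they change a call. Alternatives were pseudocounts of 0.1 and 0.5, no filter, a mean of at least 5 FPKM, median-ratio scaling, quantile normalization, array weights, the replicate block and leaving out each library.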

Additional observations from a re-analysis of the deposited data

Results flagged for a closer look

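In SHP2-null cells without BCR-ABL1 1 library stood apart for 4632428N05Rik (Vsir): replicate 3 read 1.89 FPKM, while the other 3 libraries lay between 2.19 and 2.22 FPKM. Its gap to the nearest library was 0.896 of the range of the group, above Dixon's 95% critical value for groups of 4. It was the 1 such case among 24 groups of 4 looked at, and chance gives about 1 in 20. The averaged BCR-ABL1 difference of Vsir was 0.57 (log2) without that library, against 0.59 with all libraries.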

How the results depend on the processing

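The SHP2 differences of the 5 genes kept their sign under all alternatives that gave a value. The pseudocount moved those of low genes by construction, to -1.87 and -1.41 (pseudocount 0.1 and 0.5) for Mid1 and 0.71 and 0.62 for Vsir with BCR-ABL1, and to -1.81 and -1.36 for Mid1, 1.26 and 0.98 for Vsir and 1.37 (0.1) for Grina without it. Array weights moved Nnt without BCR-ABL1 to 0.57. Mid1 and Vsir have no value with a mean of at least 5 FPKM. The BCR-ABL1 difference of Vsir ran from 0.57 to 0.89, past the threshold each time. Nnt passed with array weights (0.21, adjusted p = 0.00182 in limma), where 2625 of all genes did, and ran from 0.12 to 0.17 with 1 library left out. Mid1, near 0, turned sign with median-ratio scaling (-0.01) and array weights (-0.03), and ran from -0.04 to 0.06 with 1 library left out. Grina ran from -0.01 to 0.15. The cause of these moves was not tested.

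Counts of all genes called among genes averaging at least 5 FPKM, a smaller set, were 11 and 70 for SHP2 with and without BCR-ABL1 and 408 for averaged BCR-ABL1. Array weights gave 644 without BCR-ABL1 and 2625 for averaged BCR-ABL1. With 1 library left out they ran from 20 to 35, 80 to 164 and 565 to 1053. List genes called without BCR-ABL1 were 2 with no filter, where 188 of all genes were called. They were 7 of 89 with array weights, beside 644 of 10210 genes, and 0 to 1 of 89 with 1 library left out. For averaged BCR-ABL1 they were 14 with no filter and 3 with a mean of at least 5 FPKM, beside 1074 and 408 of all genes. They were 25 of 89 with array weights, beside 2625 of 10210 genes, and 5 to 11 of 89 with 1 library left out. With no filter or a mean of at least 5 FPKM the list genes tested are not the same 89. Nothing is read from these counts about the lists.

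With the replicate block the calls were 587 (5.75% of all genes) for SHP2 without BCR-ABL1 and 48 with it. Without BCR-ABL1 3 list genes (3.37%) and 11 neighbours (10.9%) passed. The origin of the replicate numbers is not stated for any comparison. For averaged BCR-ABL1 1 same-number pair correlated at only 0.0549, and the others at 0.242 to 0.68. The block there gave 1980 genes (19.4% of all genes), 19 of the 89 list genes, and Nnt at 0.15 (adjusted p = 0.0238 in limma). Apart from that of Nnt and the count of all genes these blocked values are given in this paragraph only. The block changed no other call of the 5 genes.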
